A study of Drosophila melanogaster with 12 samples.

Results

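Cell cycle and DNA replication genes were examined across whole flies of 2 genotypes at 2 temperatures. The set is a hand-written list of 34 genes: cyclins, their kinases and phosphatases, mitotic regulators, the MCM helicase, the origin recognition and licensing factors, replication fork and nucleotide supply genes, and a transcription factor of the S phase program. A gene was measured where a probe set was annotated to it alone, which held for 24 of the 34. Each of the 24 had 1 such probe set, among 13966 non-control probe sets tested. The other 10 genes, CycA, Cdk1, stg, polo, aurA, BubR1, Mcm7, Orc6, geminin and RnrS, were not analysed here.

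A cell copies its genome in S phase and divides it in mitosis, and cyclins bound to cyclin-dependent kinases drive both steps. The origin recognition complex, with Cdc6 and Cdt1, loads the MCM helicase on DNA, and polymerase alpha with primase then starts each new strand at the fork. In adult flies dividing cells are few outside the gonads and the gut. Germline nurse cells and follicle cells also copy DNA without dividing, and the egg is loaded with cyclin and replication factor transcripts for the fast cycles of the early embryo.

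Total RNA of Drosophila melanogaster was hybridised to Affymetrix DrosGenome1 arrays, each from 5 males and 5 females. Wild-type flies (WT) were compared with S284Y mutants of dU2AF50, the large subunit of the splicing factor U2AF, which binds the pyrimidine tract of introns. Flies had been kept at 25C, called permissive in the labels, or at 30C, called restrictive, and each of the 4 groups has 3 arrays. The groups come from the sample titles, since the written descriptions of all 3 WT 30C arrays give 25C and that of array 1 also calls it permissive. The labels name no strain, age or length of exposure, and nothing in them says that the arrays of a group came from separate cultures or sets of flies. The p-values thus cover the spread between these 12 samples alone, which may be technical. The mutation changes a residue, which a probe-set signal cannot check.

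Signals are linear probe-set intensities already scaled to a common trimmed mean. Arrays of a group correlated at 0.946 to 0.959 over all probe sets in WT and in S284Y at 30C, but at only 0.821 to 0.887 in S284Y at 25C. In that group arrays 2 and 3 differ most from the rest of the series, so results that rest on them are given with and without them. Leaving both out leaves 1 array in that group, which is then assumed to vary like the others. Median signals over the 12 arrays ran from 401.5 to 546.6.

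Cell cycle and replication transcripts formed a common pattern over the arrays, with little spread in WT, low signals on S284Y 25C array 3 and high signals in S284Y at 30C. The median of the 24 genes, as a log2 difference from the WT 25C mean, lay between -0.02 and 0.00 on the WT 25C arrays and between -0.01 and 0.14 on the WT 30C arrays. On the S284Y 25C arrays 1, 2 and 3 it was 0.12, 0.05 and -0.93, and on the S284Y 30C arrays 0.29, 0.38 and 0.56. Only array 3 of S284Y at 25C was clearly below the WT level, and all S284Y 30C arrays were above every other array. The median over all 13966 probe sets stayed between -0.04 and 0.11 on all arrays.

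Array 3 of S284Y at 25C held the lowest signal of the 12 arrays for 18 of the 24 genes, against 23.5% of all probe sets. Array 2 held it for CycE, aurB and PolA2 (11.6% of all probe sets), WT 30C array 3 for Mcm3 and Orc4 (5.91%), and WT 30C array 2 for Prim1 (6.34%). An S284Y 30C array held the highest signal for 20 of the 24, against 22.9% of all probe sets. The exceptions, Cdk2, Orc4, Orc5 and Prim1, peaked on an S284Y 25C array. For 15 of the 24, S284Y at 25C had the lowest and S284Y at 30C the highest of the 4 group means, against 15.0% of all probe sets. Without arrays 2 and 3 of S284Y at 25C, 17 of the 24 were above WT at 25C, and likewise 17 without array 3 alone. For those genes S284Y at 25C was then not the lowest group. The spread was largest in S284Y at 25C for 23 of the 24 genes, against 62.3% of all probe sets. Within groups the median SD of the 24 genes on the log2 scale was 0.10 in WT at 25C, 0.13 in WT at 30C, 0.69 in S284Y at 25C and 0.16 in S284Y at 30C. The same medians over all probe sets were 0.25, 0.22, 0.58 and 0.26. In RNA of whole flies, fewer cells of a type and less RNA per cell cannot be told apart.

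**Figure D1:**
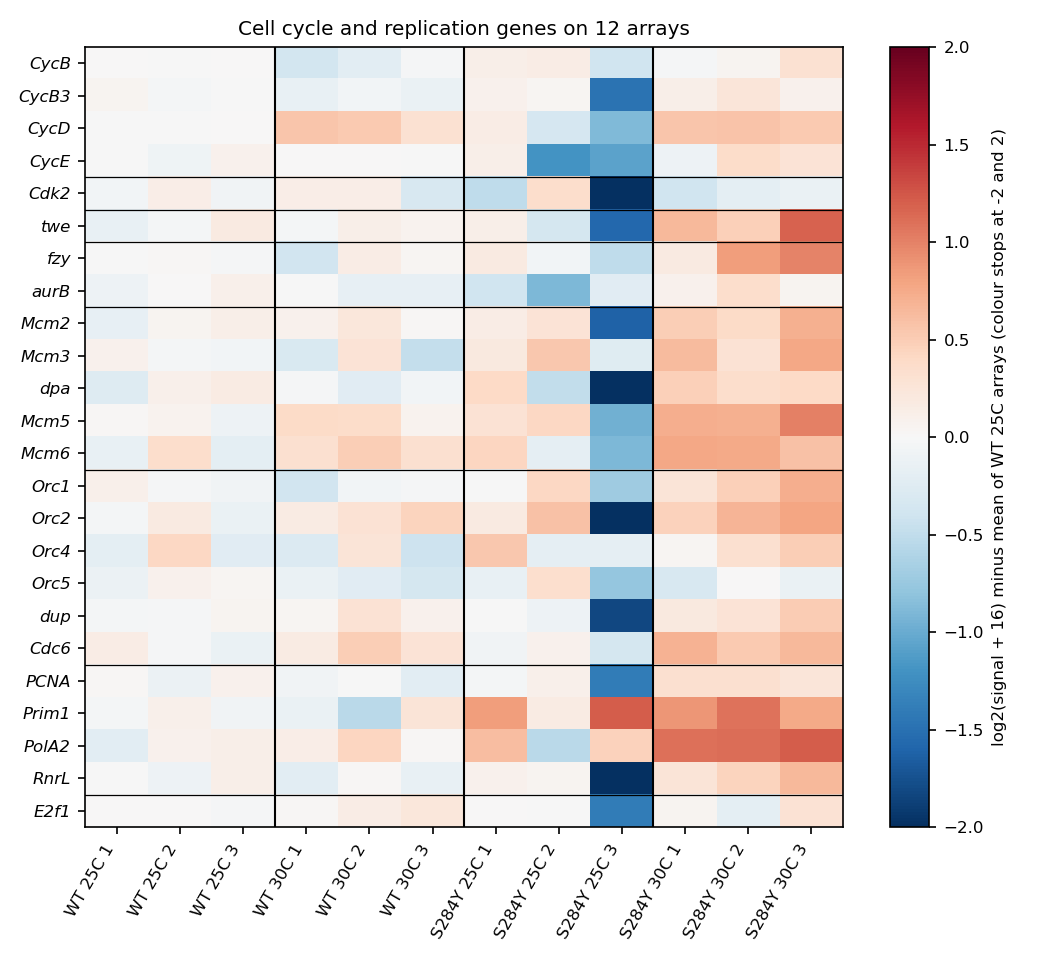
Log2(signal + 16) of 24 cell cycle and replication genes (vertical axis, grouped by role) on each of the 12 arrays (horizontal axis), minus the gene's mean over the WT 25C arrays. Colours stop at -2 and 2; the column of S284Y 25C array 3 is blue for most genes, and the 3 columns of S284Y at 30C are mostly red.

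Among the cyclins, CycD stood apart because its signal was higher at 30C in both genotypes. CycD binds Cdk4 and couples growth to cell cycle entry. Its signals on arrays 1, 2 and 3 were 1886, 1896 and 1911 in WT at 25C, 2800, 2746 and 2359 in WT at 30C, 2116, 1506 and 1027 in S284Y at 25C, and 2783, 2839 and 2749 in S284Y at 30C. All 6 arrays at 30C lay above all 6 at 25C, an order found for 2.26% of all probe sets. CycD rose from 25C to 30C in S284Y by a log2 fold change of 0.90 ± 0.216 (standard error of the fit, limma adjusted p = 0.0419). Without arrays 2 and 3 of S284Y at 25C that value was 0.40 (adjusted p = 0.169). In WT the value was 0.47 ± 0.216 (adjusted p = 0.764). The WT estimate is the same without the S284Y arrays 2 and 3, whose removal narrows the pooled spread, and the gene then passed (adjusted p = 0.0345), as it did with array weights (adjusted p = 0.0491). The interaction, the S284Y response minus the WT response, was 0.44 ± 0.306 (adjusted p = 0.681) and turned to -0.07 without those arrays. Its partner Cdk4, from the longer list of other cell cycle genes, had values of 0.74 ± 0.206 in S284Y (adjusted p = 0.0596) and 0.64 ± 0.206 in WT (adjusted p = 0.512). Without arrays 2 and 3 the S284Y value was 0.34 (adjusted p = 0.452), and the WT value passed (adjusted p = 0.0468).

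CycE activates Cdk2 for entry into S phase. Its signals were 3119, 2953 and 3300 in WT at 25C, 3127, 3154 and 3105 in WT at 30C, 3401, 1360 and 1483 in S284Y at 25C, and 2896, 4032 and 3755 in S284Y at 30C. Arrays 2 and 3 of S284Y at 25C lay below the other 10, while array 1 of that group was above all 6 WT arrays. The genotype difference at 25C was -0.71 ± 0.279 (adjusted p = 0.299). It was 0.12 without arrays 2 and 3 (adjusted p = 0.889) and -1.13 without array 1 (adjusted p = 0.00449). From 25C to 30C the value was 0.89 ± 0.279 in S284Y (adjusted p = 0.0823), against 0.05 without arrays 2 and 3.

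The mitotic cyclins were bright. CycB had the highest signals of the set, from 24103 on S284Y 25C array 3 to 39092 on S284Y 30C array 3. Its WT signals were 31801, 31415 and 32017 at 25C and 24541, 27398 and 31289 at 30C, lower at 30C on all arrays, with a difference of -0.20 ± 0.203 (adjusted p = 0.954). Quantile normalization turned this WT value to 0.17, so its sign depends on the scaling. CycB3 signals lay between 8386 and 11072 on 11 arrays and at 3342 on S284Y 25C array 3. At 30C its S284Y signals of 10155, 11072 and 9937 were above the WT signals of 8386, 8933 and 8535, a log2 difference of 0.27 ± 0.315 (adjusted p = 0.884).

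Cdk2, the kinase partner of CycE, varied without a common order. Its signals were 2587, 2951 and 2585 in WT at 25C, 2978, 2978 and 2152 in WT at 30C, 1891, 3451 and 505 in S284Y at 25C, and 2057, 2352 and 2456 in S284Y at 30C. The highest and the lowest of the 12 values are both S284Y 25C arrays. Its genotype difference was -0.85 ± 0.48 at 25C (adjusted p = 0.44; -0.51 without arrays 2 and 3) and -0.23 ± 0.48 at 30C (adjusted p = 0.941).

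The phosphatase gene twe, a Cdc25 that activates Cdk1 in meiosis of both sexes, gave 1164, 1250 and 1460 in WT at 25C and 1258, 1400 and 1357 in WT at 30C. In S284Y it gave 1396, 1010 and 423 at 25C and 2018, 1789 and 2923 at 30C. All 3 S284Y 30C arrays were above the other 9. It rose from 25C to 30C in S284Y by 1.36 ± 0.342 (adjusted p = 0.0461). Without arrays 2 and 3 the value was 0.65 (adjusted p = 0.204). At 30C the difference from WT was 0.71 ± 0.342 (adjusted p = 0.493), and the interaction of genotype and temperature was 1.31 ± 0.484 (adjusted p = 0.605; 0.59 without arrays 2 and 3).

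Of the mitotic regulators, fzy encodes the Cdc20-type activator of the anaphase-promoting complex. Its signals were 1643, 1686 and 1630 in WT at 25C, 1263, 1830 and 1699 in WT at 30C, 1866, 1591 and 1158 in S284Y at 25C, and 1875, 2970 and 3311 in S284Y at 30C. The 3 S284Y 30C arrays were above the rest, array 1 only narrowly. The difference from WT at 30C was 0.74 ± 0.242 (adjusted p = 0.206), and the temperature difference in S284Y was 0.80 ± 0.242 (adjusted p = 0.0745; 0.50 without S284Y 25C arrays 2 and 3). The kinase gene aurB, of the chromosomal passenger complex, was dimmer. It gave 353, 380 and 407 in WT at 25C, 379, 338 and 338 in WT at 30C, 285, 197 and 323 in S284Y at 25C, and 404, 487 and 394 in S284Y at 30C. It was the only gene of the 24 whose S284Y arrays all lay below WT at 25C, by -0.50 ± 0.283 (adjusted p = 0.437; -0.40 without arrays 2 and 3), and at 30C they all lay above.

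**Figure D2:**
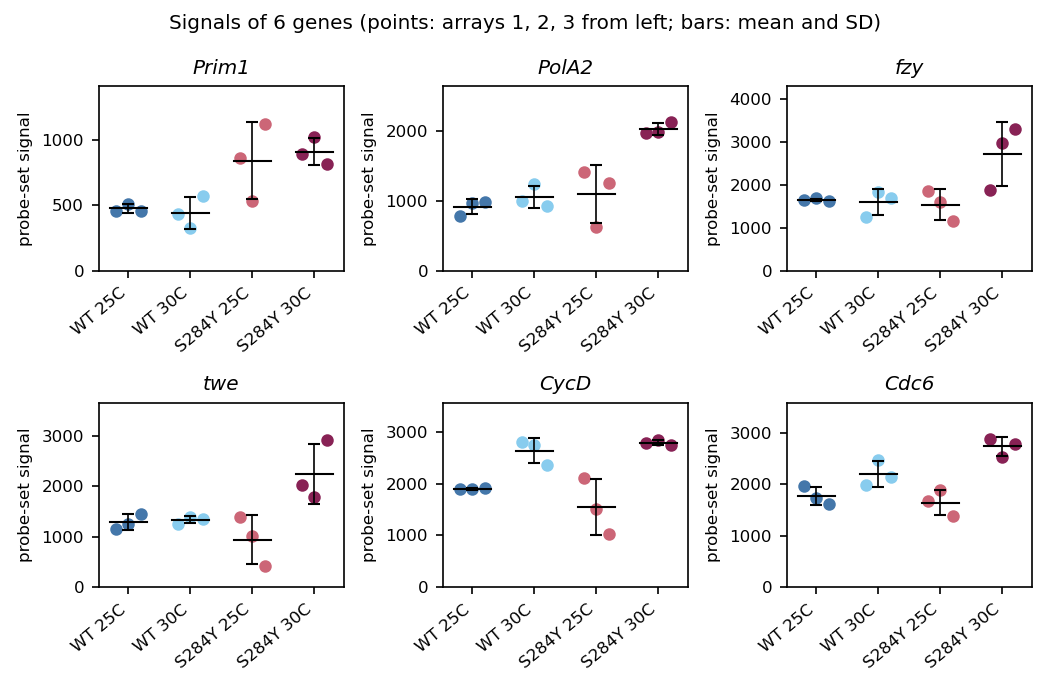
Linear probe-set signals (vertical axes, each starting at 0) of Prim1, PolA2, fzy, twe, CycD and Cdc6 in the 4 groups; points are arrays 1, 2 and 3 from left to right, and bars are the mean and SD of 3 arrays. Prim1, PolA2, fzy, twe and Cdc6 have all S284Y 30C arrays above all WT 30C arrays, whereas the CycD signals of the genotypes overlap at 30C.

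The MCM proteins Mcm2, Mcm3, dpa (Mcm4), Mcm5 and Mcm6 form the ring-shaped helicase that opens DNA at the fork. All 5 measured genes had S284Y signals above WT on every array at 30C, an order found for 14.8% of all probe sets. Their log2 differences ran from 0.33 to 0.74 with a median of 0.51. Mcm3 gave 977, 1457 and 868 in WT and 1883, 1485 and 2087 in S284Y at 30C, after 1287, 1180 and 1163 in WT and 1383, 1770 and 1023 in S284Y at 25C. Its difference at 30C was 0.74 ± 0.244 (adjusted p = 0.209). WT array 2 and S284Y array 2 lay close to each other, and the other arrays were well apart.

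Mcm5 gave 2396, 2378 and 1938 in WT and 3039, 3028 and 3723 in S284Y at 30C, after 1875, 1923 and 1720 in WT and 2239, 2447 and 932 in S284Y at 25C. The S284Y 30C arrays were above the other 9. The genotype difference at 30C was 0.54 ± 0.29 (adjusted p = 0.566) and the temperature difference was 0.91 ± 0.29 in S284Y (adjusted p = 0.0862; 0.53 without S284Y 25C arrays 2 and 3) and 0.28 ± 0.29 in WT (adjusted p = 0.957). The dpa signals were 1815, 2321 and 2433 in WT at 25C, 2130, 1849 and 2084 in WT at 30C, 2862, 1540 and 491 in S284Y at 25C, and 3020, 2772 and 2866 in S284Y at 30C. The 3 S284Y 25C arrays thus ran from near the S284Y 30C level to the lowest of the 12 dpa signals. The difference of dpa from WT was -0.74 ± 0.438 at 25C (adjusted p = 0.462), turned to 0.40 without arrays 2 and 3, and was 0.51 ± 0.438 at 30C (adjusted p = 0.792). Mcm2 gave 1551, 1717 and 1483 in WT and 2052, 1909 and 2392 in S284Y at 30C (0.41 ± 0.378, adjusted p = 0.818). Mcm6, the dimmest of the helicase genes, gave 663, 749 and 664 in WT and 919, 905 and 800 in S284Y at 30C (0.33 ± 0.309, adjusted p = 0.822).

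Among the 6 origin and licensing genes, Cdc6 rose with temperature in S284Y. Cdc6 loads the helicase together with the origin recognition complex. Its signals were 1960, 1734 and 1614 in WT at 25C, 1978, 2480 and 2139 in WT at 30C, 1677, 1879 and 1380 in S284Y at 25C, and 2877, 2533 and 2787 in S284Y at 30C. Like CycD, it was higher on all 6 arrays at 30C than on all 6 at 25C. The rise in S284Y was 0.74 ± 0.168 (adjusted p = 0.0376), and 0.70 without arrays 2 and 3 (adjusted p = 0.0657). It is the one of the 3 called genes whose estimate moved little without them. The WT value was 0.31 ± 0.168 (adjusted p = 0.815).

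Orc1, a subunit of the origin recognition complex, gave 1812, 1663 and 1619 in WT at 25C, 1295, 1634 and 1669 in WT at 30C, 1685, 2266 and 1034 in S284Y at 25C, and 2025, 2372 and 2818 in S284Y at 30C. At 30C the S284Y arrays were all above WT, by 0.64 ± 0.25 (adjusted p = 0.328). Orc2 had the widest range, with 53 on S284Y 25C array 3 against 695 to 1332 on the other 11 arrays. Its temperature difference in S284Y of 1.56 ± 0.753 (adjusted p = 0.211) was 0.47 without arrays 2 and 3. The Cdt1 gene dup, which brings the helicase to origins, gave 1606, 1622 and 1704 in WT at 25C, 1690, 2013 and 1740 in WT at 30C, 1643, 1538 and 455 in S284Y at 25C, and 1893, 1998 and 2342 in S284Y at 30C. Apart from the single value of 455 these signals were close together, and the genotype difference was -0.64 ± 0.364 at 25C (adjusted p = 0.445; -0.00 without arrays 2 and 3) and 0.19 ± 0.364 at 30C (adjusted p = 0.934). Orc4 and Orc5, further subunits of the complex, had overlapping signals of the genotypes at both temperatures. Orc5 gave 885, 1027 and 993 in WT at 25C and 882, 822 and 754 in WT at 30C, lower at 30C on all arrays (-0.24 ± 0.256, adjusted p = 0.959).

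The 2 largest genotype differences at 30C were those of replication fork genes. Prim1 and PolA2 encode the catalytic primase subunit and the second subunit of polymerase alpha, which work in a single complex. Prim1 gave 460, 514 and 454 in WT at 25C, 433, 324 and 573 in WT at 30C, 863, 535 and 1124 in S284Y at 25C, and 889, 1024 and 818 in S284Y at 30C. It was the only gene of the 24 with all S284Y arrays above all WT arrays of the same temperature at 25C and at 30C. The difference was 1.04 ± 0.295 at 30C (adjusted p = 0.125) and 0.74 ± 0.295 at 25C (adjusted p = 0.305), or 0.84 without arrays 2 and 3. On S284Y 25C array 3, where most of the set was lowest, Prim1 had its highest signal.

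PolA2 gave 788, 967 and 988 in WT at 25C, 1004, 1235 and 922 in WT at 30C, 1407, 623 and 1252 in S284Y at 25C, and 1969, 1987 and 2124 in S284Y at 30C. The S284Y 30C arrays lay well above the other 9. The genotype difference at 30C was 0.94 ± 0.267 (adjusted p = 0.125) and the temperature difference in S284Y was 0.96 ± 0.267 (adjusted p = 0.061; 0.52 without S284Y 25C arrays 2 and 3). The remaining subunits of this complex, in the longer list and chosen after their values were seen, were unlike each other at 30C. Prim2 had a difference of 0.76 ± 0.333 (adjusted p = 0.422) and PolA1 of 0.11 ± 0.417 (adjusted p = 0.967).

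PCNA, the sliding clamp of the polymerases, was bright, at 7267, 6624 and 7626 in WT at 25C and 6811, 7140 and 6182 in WT at 30C. In S284Y it was 6994, 7654 and 2710 at 25C and 8935, 8966 and 8446 at 30C. The 3 S284Y 30C arrays were above the other 9, with a difference from WT at 30C of 0.39 ± 0.299 (adjusted p = 0.754). RnrL, the large subunit of ribonucleotide reductase, gave 4262, 3967 and 4633 in WT at 25C and 3690, 4356 and 3872 in WT at 30C. In S284Y it gave 4554, 4456 and 783 at 25C and 5109, 5858 and 6725 at 30C, again above the other 9 arrays, with a difference at 30C of 0.56 ± 0.489 (adjusted p = 0.799). The transcription factor E2f1, which drives S phase genes, was flat by comparison. It gave 1394, 1388 and 1367 in WT at 25C, 1401, 1536 and 1626 in WT at 30C, 1392, 1375 and 514 in S284Y at 25C, and 1444, 1209 and 1695 in S284Y at 30C, a difference at 30C of -0.08 ± 0.31 (adjusted p = 0.97).

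At 30C, S284Y flies had higher values than WT for 22 of the 24 genes, all but Cdk2 and E2f1, with a median log2 difference of 0.37 and a range of -0.23 to 1.04. The median over all probe sets was 0.03, and 52.8% of them were positive. None of the 24 passed the adjusted threshold of 0.05, in a comparison in which 0.351% of all probe sets were called higher and 1.17% lower. At an unadjusted p under 0.05, Prim1, PolA2, fzy, Mcm3 and Orc1 were higher, 5 of 24 against 4.28% of all probe sets, and 0 were lower, against 6.69%. For 16 of the 24 every S284Y array was above every WT array, against 14.8% of all probe sets, and for 0 all were below, against 13.3%.

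The pooled spread in that comparison includes S284Y 25C arrays 2 and 3, which are not part of it. With them left out the estimates are the same and 10 of the 24 passed, all higher, against 3.85% of all probe sets. These were PolA2 (adjusted p = 0.00149), RnrL (0.0105), Prim1 (0.0115), Orc1 (0.0146), Mcm5 (0.0151), dpa (0.0203), twe (0.0215), PCNA (0.0217), Mcm3 (0.0288) and fzy (0.0349). A fit of only the 6 arrays compared called 8 higher, against 3.47%, and array weights called 7, against 3.36%. Mcm5, Orc1, PolA2, Prim1 and twe passed in each of these 3 fits. Each of the 3 left out S284Y 25C arrays 2 and 3 or gave them the lowest weights (0.375 and 0.125). Without S284Y 25C array 3 alone 9 passed, against 2.22%, and without array 2 alone 2 did, Prim1 and PolA2, against 0.623%. None of the 24 passed under both other offsets, quantile normalization, median centring or without the dimmest 40% of probe sets. The same held for eBayes without trend, the replicate block, WT 30C array 1 moved to 25C, and without S284Y 25C array 1 alone.

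At 25C the values leaned the other way, 20 of 24 below WT with a median of -0.37 (all probe sets 0.00, with 50.3% positive). None passed, where 0.315% of all probe sets were called higher and 0.473% lower. For Prim1 all S284Y arrays were above WT and for aurB all were below, 1 of 24 each against 7.53% and 7.15%. At an unadjusted p under 0.05, Prim1 was higher and CycE lower, 1 of 24 each against 5.99% and 7.89% of all probe sets. Without arrays 2 and 3 the median was 0.12 with 17 of 24 above WT (50.5% of all probe sets), so the direction of the median at 25C turned, and 13 of the 24 genes took the opposite sign. Leaving out array 3 alone turned it too (median 0.06, 17 positive), and leaving out array 2 alone did not (-0.41, 21 negative). Without array 1, CycE and dpa (-1.30, adjusted p = 0.0499) were called lower, where 4.55% of all probe sets were.

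**Figure D3:**
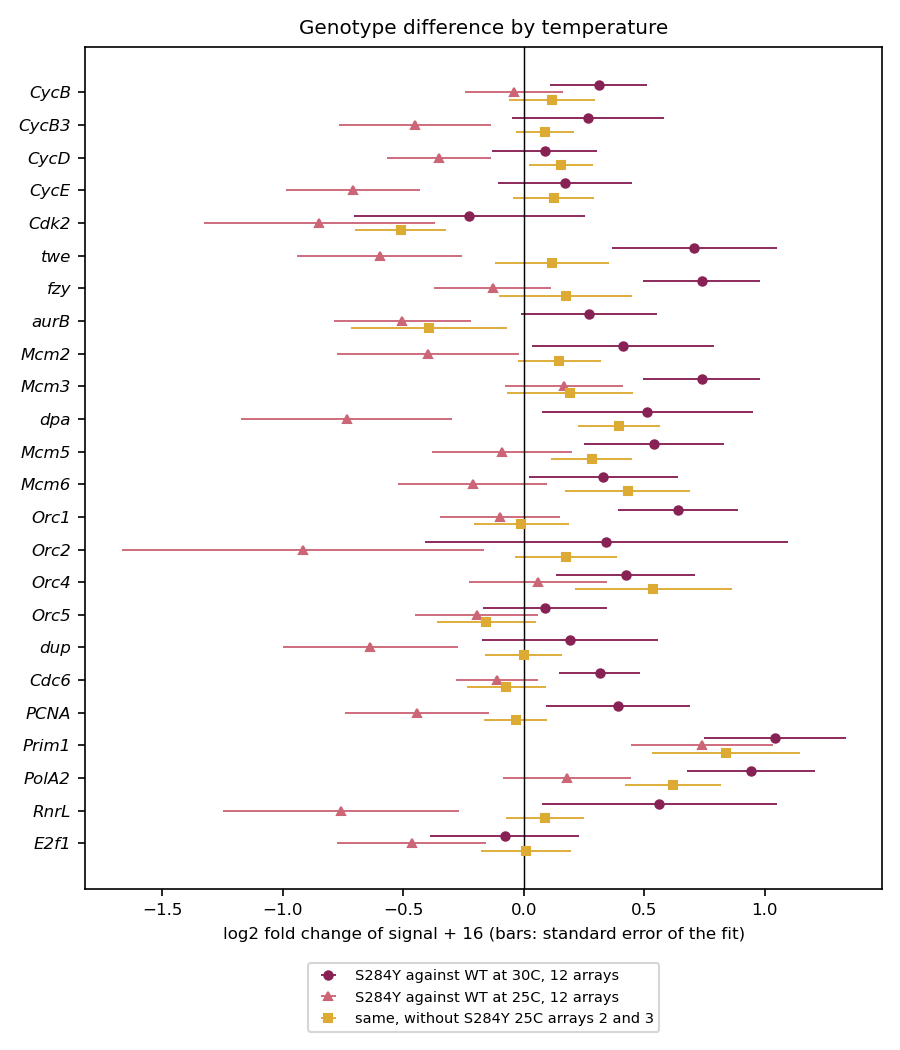
Log2 fold change of signal + 16, S284Y against WT (horizontal axis, bars are the standard error of the fit), for 24 genes at 30C (circles), at 25C (triangles) and at 25C without S284Y arrays 2 and 3 (squares). At 30C 22 circles lie right of 0, and at 25C most triangles lie left of 0 while 17 squares lie right of it.

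From 25C to 30C in S284Y all 24 values were positive, with a median of 0.77 and a range of 0.05 to 1.56. The median over all probe sets was -0.07, and 46.0% were positive. Without the dimmest 40% of probe sets, which left all 24 genes in, the median over the rest was 0.08. The count of positive values was 23 under quantile normalization, with array weights, and without S284Y 25C array 2 or S284Y 30C array 2. It was 21 without S284Y 25C array 3, where CycB, Cdk2 and Orc5 were negative. Cdc6, CycD and twe passed, 3 of 24, where 1.82% of all probe sets were called higher, and 0 fell, against 2.18%. For 13 every 30C array was above every 25C array, against 12.9%, and for 0 all were below, against 13.4%. At an unadjusted p under 0.05, 15 were higher against 13.6% of all probe sets and 0 lower against 12.1%. Without arrays 2 and 3 the median was 0.35 with 22 positive (49.3% of all probe sets) and 0 passing (limma, 0.501% of all probe sets called higher). The 3 calls were also lost when any WT array or any S284Y 30C array was left out, and in a fit restricted to the 6 S284Y arrays (adjusted p = 0.299 for each), in which 0.0% of all probe sets were called higher. Leaving out S284Y 25C array 1 gave 11 calls, against 10.4% of all probe sets, array 2 gave 1, Cdc6, against 1.35%, and array 3 gave 4, Cdc6, CycD, twe and PolA2, against 3.9%.

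In WT the values of the same genes with temperature lay near 0. The median difference was -0.04 with 11 of 24 positive (47.6% of all probe sets), a range of -0.24 to 0.47 and a median over all probe sets of -0.02. None passed (limma, 0.0286% of all probe sets called higher and 0.0644% lower). CycD alone passed with array weights (0.831% called higher) and without S284Y 25C arrays 2 and 3 (0.659%). In the fit of all 12 arrays there were 0 in either direction at an unadjusted p under 0.05, against 2.56% and 3.92%. CycD, Mcm5, Cdc6 and E2f1 were higher at 30C on all arrays, 4 of 24 against 11.3%. CycB, CycB3 and Orc5 were lower on all, 3 of 24 against 12.2%.

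The interaction of genotype and temperature, the difference between the temperature responses of S284Y and WT, was positive for all 24 genes, with a median of 0.73 (all probe sets 0.01, 50.6% positive) and a range of 0.28 to 1.32. None passed in limma, and neither did any of the 13966 probe sets (0.0%), so no gene was shown to respond differently in the genotypes. At an unadjusted p under 0.05, twe (1.31), fzy (0.87) and CycE (0.88) were higher, 3 of 24 against 3.76%, and 0 lower, against 4.31%. Without S284Y 25C arrays 2 and 3 these values were 0.59, 0.56 and 0.05. The median of the 24 was then 0.25 with 20 positive (50.9% of all probe sets), and without array 1 CycE passed (1.30, adjusted p = 0.0352; 0.451% of all probe sets called higher).

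**Figure D4:**
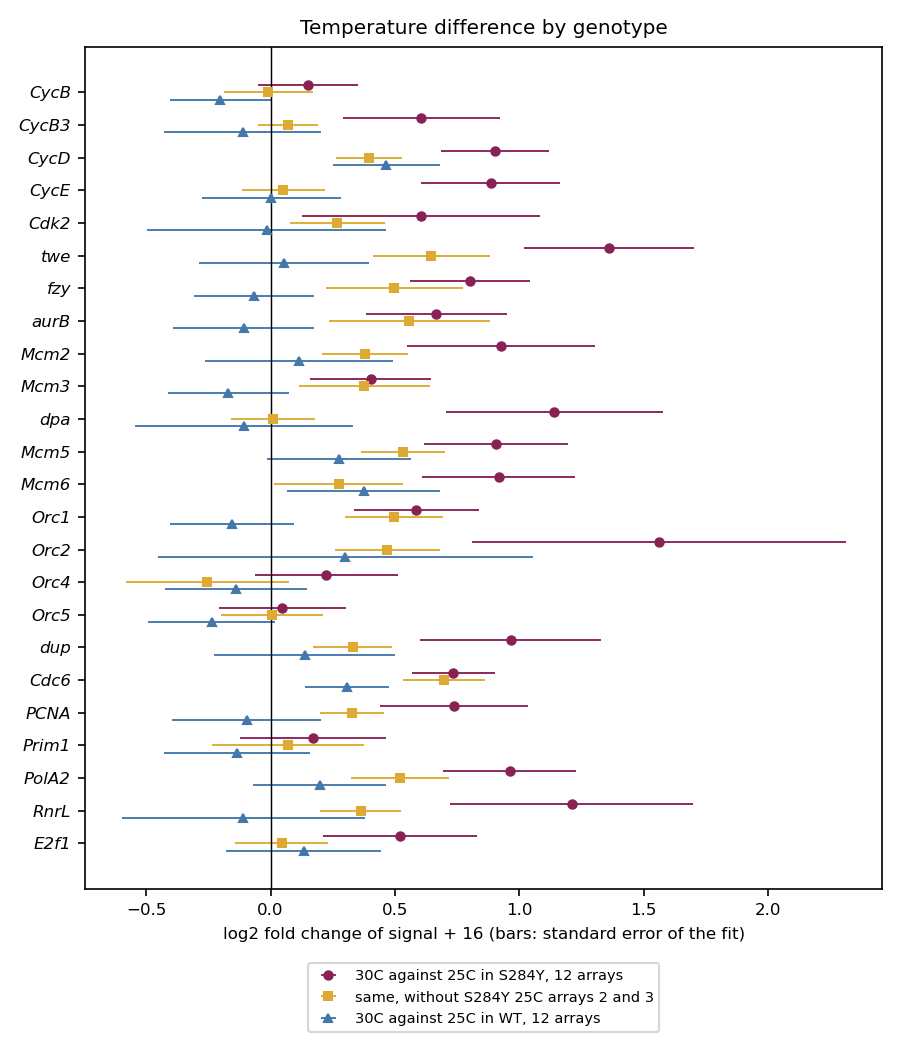
Log2 fold change of signal + 16 at 30C against 25C (horizontal axis, bars are the standard error of the fit) for 24 genes in S284Y (circles), in S284Y without 25C arrays 2 and 3 (squares) and in WT (triangles). All 24 circles lie right of 0, most squares lie closer to it, and the triangles scatter around it between -0.24 and 0.47.

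A longer list of 108 other measured cell cycle and replication genes, of 123 listed, was likewise lowest on S284Y 25C array 3 and highest on the S284Y 30C arrays. Its median difference from the WT 25C mean was between -0.03 and 0.11 on the WT arrays, 0.15, 0.04 and -0.57 on the S284Y 25C arrays, and 0.30, 0.33 and 0.39 on the S284Y 30C arrays. At 30C, 91 of the 108 were higher in S284Y than in WT, against 52.8% of all probe sets, with a median of 0.30. Of the 108, 0 passed, where 0.351% of all probe sets were called higher and 1.17% lower. By role, 29 of 30 replication fork and origin genes were higher (median 0.34), and 27 of 35 spindle and chromosome segregation genes (0.39). So were 16 of 19 cyclins, kinases and regulators (0.21). For E2F, Myb and checkpoint genes it was 12 of 14 (0.25), and for anaphase-promoting complex genes 7 of 10 (0.13). The cyclin and kinase role also holds CycT, CycK, CycH, Cdk8 and Cdk12, so the counts of the longer list are not of cell cycle genes alone.

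The lowest adjusted p among them at 30C belonged to dUTPase, which keeps uracil out of DNA (0.89 ± 0.208, adjusted p = 0.0568). Its difference was not particular to 30C, with 0.92 ± 0.208 at 25C (limma adjusted p = 0.0648). At 30C RPA2, a subunit of the single-strand binding protein, was at 0.61 (adjusted p = 0.0967). The passenger protein Incenp was at 0.89 (adjusted p = 0.104) and the kinetochore protein Nuf2 at 0.97 (adjusted p = 0.13). Without S284Y 25C arrays 2 and 3, 24 of the 108 passed, all higher, against 3.85% of all probe sets, Prim2 among them (adjusted p = 0.0311). From 25C to 30C in S284Y, 2 of the 108 rose, a share near the 1.82% of all probe sets called higher. These were Ctf4, which links helicase and polymerase alpha (0.87 ± 0.184, adjusted p = 0.0293), and RPA1, the large subunit of the single-strand binding protein (1.03 ± 0.242, adjusted p = 0.0403). Neither passed without S284Y 25C arrays 2 and 3 (0.59, adjusted p = 0.145, and 0.54, adjusted p = 0.104). In WT 0 passed in limma, where 0.0286% of all probe sets were called higher and 0.0644% lower, at a median of 0.06. At an unadjusted limma p under 0.05 there were 6 of the 108, 4 of them higher, against 2.56% of all probe sets higher and 3.92% lower.

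Genes listed as ovary germline markers were also lowest on S284Y 25C array 3 and highest on the S284Y 30C arrays. Whether they mark the female germline alone was not tested. Unlike the set, they lay below WT on S284Y 25C array 2. Their median difference from the WT 25C mean was between -0.05 and 0.22 on the WT arrays, 0.16, -0.20 and -0.95 on the S284Y 25C arrays and 0.32, 0.48 and 0.51 on the S284Y 30C arrays. The summed signal of the 19 measured markers, of 20 listed, ran from 92849 to 101411 in WT at 25C, 102848 to 107446 in WT at 30C, 80098 to 107371 in S284Y at 25C and 121529 to 136950 in S284Y at 30C. At 30C 15 of the 19 were higher in S284Y than in WT, against 52.8% of all probe sets, with a median of 0.31. Of the 19, 0 passed, where 0.351% of all probe sets were called higher and 1.17% lower. Without S284Y 25C arrays 2 and 3, 6 were called higher (exu, otu, vas, osk, spn-E and nanos), against 3.85% of all probe sets, and piwi lower, against 5.3%. From 25C to 30C in S284Y 17 were positive, against 46.0% of all probe sets, with a median of 0.86. Of the 19, 7 rose (aub, osk, ovo, egl, bcd, vas and orb), against 1.82% of all probe sets. Without those arrays the median was 0.23 and 2 passed, aub (adjusted p = 0.0313) and osk (adjusted p = 0.0396). Their part in the cell cycle result was not tested. No marker was at 0, and the dimmest, grk, had a mean signal of 422.

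Testis, eggshell and accessory gland markers ran differently. Testis markers, 17 of 18 measured, had a median of 0.03, 0.00 and 0.61 on the S284Y 25C arrays and -0.12, -0.25 and -0.38 on the S284Y 30C arrays, with summed signals of 31384 to 57124 and 23678 to 30314. Testis sums in WT were 30165 to 32539 at 25C and 31697 to 35768 at 30C. Eggshell markers, 12 of 13 measured, had a median of -0.07, 1.01 and 0.08 on the S284Y 25C arrays and between -0.82 and -0.40 on the S284Y 30C arrays. Eggshell sums were lower at 30C in WT too, at 310831 to 415494 at 25C and 235173 to 292585 at 30C. In S284Y they were 339812 to 893112 at 25C and 277871 to 296418 at 30C. The eggshell markers called with temperature in S284Y were Femcoat (-1.19), Cp19 (-1.27) and Vm32E (-1.24), all lower, against 2.18% of all probe sets. Without S284Y 25C arrays 2 and 3 the Femcoat value was -1.24. Against WT at 30C only Femcoat was called, lower in S284Y (-1.15, limma adjusted p = 0.0117), against 1.17%. Summed accessory gland signals ran from 42173 to 62725 in WT at 25C and from 40932 to 48755 in WT at 30C. They ran from 40902 to 115494 in S284Y at 25C and from 22365 to 40959 in S284Y at 30C. Array 3 of S284Y at 25C thus combined low medians of the cell cycle and ovary germline lists with a high median of the testis list. The part of the tissue makeup in the array's values was not tested. Yolk protein genes, all 3 measured, summed to 83071 to 144916 in WT at 25C and 34845 to 83078 in WT at 30C. In S284Y the yolk sums were 116855 to 635799 at 25C and 111221 to 153939 at 30C. At 30C the S284Y yolk sums were thus all above those of WT. Gut progenitor markers, all 3 measured, summed to 2085 to 2317 in WT at 25C, 1629 to 2096 in WT at 30C, 1397 to 2220 in S284Y at 25C and 1826 to 2393 in S284Y at 30C.

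Summed fat body markers were lower in S284Y than in WT, and summed muscle markers lower at 30C than at 25C. The 5 fat body markers summed to 37140 to 40308 in WT at 25C, 32350 to 34613 in WT at 30C, 19180 to 23417 in S284Y at 25C and 13609 to 15490 in S284Y at 30C. Their S284Y sums lay below WT at both temperatures. At 30C all 5 had lower values in S284Y, and 4 fell, tobi (-3.35), Lsp2 (-2.30), Lsd-1 (-1.57) and FASN1 (-1.20), against 1.17% of all probe sets. The 4 measured muscle markers, of 6 listed, summed to 41797 to 47929 in WT and 43150 to 63291 in S284Y at 25C, and to 22227 to 24008 in WT and 19332 to 24031 in S284Y at 30C. Muscle sums were thus lower at 30C in both genotypes, and Act88F fell in WT (-1.72, adjusted p = 0.0284) and in S284Y (-2.19, adjusted p = 0.00307). The part of these tissues in the cell cycle result was not tested. Photoreceptor markers, 4 of 9 measured, summed to 14632 to 16431 in WT at 25C and 15322 to 18857 in WT at 30C. In S284Y they summed to 13917 to 15667 at 25C and 11857 to 15186 at 30C, the latter below WT at 30C.

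**Figure D5:**
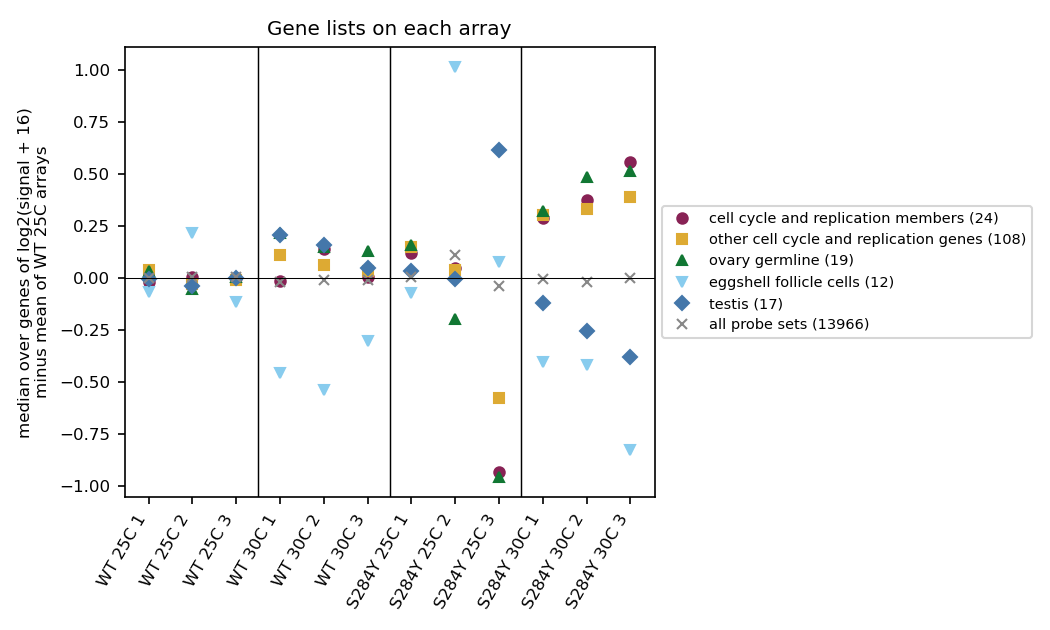
Median over the genes of each list of log2(signal + 16) minus the WT 25C mean (vertical axis) on each of the 12 arrays (horizontal axis); gene numbers are in the legend. Cell cycle and ovary germline medians lie together on each S284Y 30C array, between 0.29 and 0.56, and at -0.93 and -0.95 on S284Y 25C array 3, where the testis median is 0.61.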

How the data were processed

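The deposited tables give intensity on a linear scale, a single signal for each probe set of a 1-colour array. The steps by which the authors made these signals are not given in the sources used here. The values show that arrays had been scaled before deposit, with 2% trimmed means of 1000.12 to 1000.18, so no normalization was added. Detection calls were not used. Of 14010 probe sets, 44 controls were left out. The platform annotation gave 1 gene symbol for 12442 probe sets (12393 matched to current names through the RefSeq gene table, 49 kept as on the array), several for 327 and none for 1197.

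Log2(signal + 16) was fitted in limma 3.58.1 (R 4.3.3) with lmFit, a mean for each of the 4 groups and all 12 arrays, followed by contrasts and eBayes with trend. P-values were Benjamini-Hochberg adjusted over the 13966 probe sets of each contrast, at a threshold of 0.05. The 16 added damps differences of dim probe sets. The procedure was tested on simulated data. With 3 arrays against 3 the smallest exact permutation p is 0.10, and the number of arrays limits the precision. Genes described in full are, per contrast, those passing and the 6 of lowest adjusted p. Of other cell cycle genes, up to 6 per contrast may be named. The genes and lists were chosen with earlier results of these data known, so the lists have no test of their own. Alternatives covered the offset, scaling, dim probe sets, the variance model, the arrays included and a replicate block. Replicate numbers did not pair arrays of different groups: deviations from the group means correlated at -0.13 to 0.06 in 18 same-number pairs and at -0.04 to 0.09 in 36 others.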

Additional observations from a re-analysis of the deposited data

How the results depend on the processing

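The medians of the 24 genes kept their direction in S284Y against WT at 30C, in S284Y with temperature and in the interaction under all alternatives run. At 25C the median moved to 0.12 without S284Y 25C arrays 2 and 3, and in WT with temperature to 0.031 with WT 30C array 1 moved to 25C. The interaction median was 0.40 with array weights and 0.25 without arrays 2 and 3. Without the dimmest 40% of probe sets the medians of the 24 genes were the same, but those of the background moved. Over the 8380 probe sets left they were -0.07 for genotype at 25C, 0.08 with temperature in S284Y and 0.08 for the interaction. The count passing at 30C was 7 with array weights, 8 in the fit of 6 arrays and 10 without arrays 2 and 3. The 3 calls with temperature in S284Y became 0 with eBayes without trend, array weights, the 6 arrays, without arrays 2 and 3, with WT 30C array 1 moved, and with the replicate block (adjusted p = 0.0597 to 0.0745), and held under both offsets, quantile normalization, median centring and without the dimmest 40% of probe sets. In WT with temperature CycD passed, 1 gene, with array weights and without arrays 2 and 3. At 25C without arrays 2 and 3, 13 of the 24 genes took the opposite sign, among them CycE (0.12), twe (0.12), dpa (0.40) and Orc2 (0.18), and the value of CycB in WT with temperature under quantile normalization (0.17) reversed. The cause was not tested. Leaving out 1 array at a time gave 0 to 2 passing genes and medians of -0.58 to 0.060 at 25C, 0 to 9 and 0.32 to 0.42 at 30C, 0 to 11 and 0.38 to 0.95 with temperature in S284Y, 0 to 0 and -0.06 to 0.00 in WT, and 0 to 1 and 0.28 to 0.85 for the interaction. The replicate block changed no other call. At 30C none of the 24 passed with it, under both offsets, quantile normalization, median centring or eBayes without trend. Nor did any pass at 30C without the dimmest 40% of probe sets or with WT 30C array 1 moved. The mean over all probe sets of a gene was not run, since each gene has 1. The dimmest of the genes' signals, 53 for Orc2 on S284Y 25C array 3, depends most on the added offset.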
